A study of Rattus norvegicus with 9 samples.

Results

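The genes described here are the Fox (forkhead), Klf (Krüppel-like) and Sox (SRY-box) transcription factors of the rat, with Gata2 and Gata3, as they are named on a whole-genome oligonucleotide array. The rule takes members by their symbol in the scanner files, and 3 relatives (Klf4, Klf9 and Sox9) were left out. The choice gave 53 members, measured by 66 probes, out of 35347 names on the array (genes, and unnamed probes counted 1 each): 27 Fox, 10 Klf, 14 Sox and 2 Gata genes. Total RNA came from Sertoli cells of rats aged 5, 12 and 60 days, with 3 cultures and 3 arrays for each age. All 9 cultures were kept for 4 days in a defined growth factor medium and then received pulses of 50 ng/ml oFSH and 1e-07 M testosterone over 11 h, so that the ages differ and the treatment does not, and no culture without hormones was available for comparison. The strain, the number of rats behind a culture and whether cultures of 1 age came from separate rats are not given in the sources used here, so that p-values measure the spread between these 9 cultures only.

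Forkhead proteins bind DNA through a winged-helix domain, Sox proteins through an HMG box that bends the helix, and Klf and Gata proteins through zinc fingers that read CACCC-like or GATA-like sites. Sertoli cells are the somatic nurse cells of the seminiferous tubule: Sox9 and Gata4, outside the set, are the best known of these families there. Sertoli cells divide in the newborn testis, stop dividing around puberty, and in the adult carry germ cells through meiosis and sperm formation. Within the set, Sox8 is known in mice as a partner of Sox9 in the testis, and Foxl2 as the factor that keeps granulosa cells of the ovary from turning Sertoli-like.

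Levels are log2 spot intensities relative to the 75th percentile of the same array, so that 0 is the level of that percentile and each unit is a doubling. They compare 1 probe between arrays and never 2 probes with each other. A gene was tested where 2 or more arrays of the same age read its probe as well above background, and called where limma's adjusted p (Benjamini-Hochberg, over all 22449 genes tested) was under 0.05. On the 9 arrays 20151 to 25852 of 41012 probes were well above background. Of 18 Sertoli cell markers on the array, all passed this filter, and their summed linear signal lay at 73.2 to 91.6 at 5 days, 424 to 440 at 12 days and 414 to 443 at 60 days (in multiples of the 75th percentile). The cultures also held RNA of other cells, in amounts that moved with age: the 15 spermatocyte markers measured summed to 1.84 to 2.32 at 5 days, 16.9 to 22.0 at 12 days and 118 to 220 at 60 days. Of the 18 spermatid markers that passed, 17 were called higher at 60 than at 12 days. That count also holds levels that were not measured: 14 of the 18 passed through the 60-day arrays alone, and 10 were above background on no 12-day array. The 4 above background on 2 or more 12-day arrays were all called higher. Markers of most other somatic cells were highest at 5 days: the summed signal of Leydig cell markers was 62.3 to 121 at 5 days, 11.8 to 14.3 at 12 days and 12.7 to 15.6 at 60 days. That of duct epithelium was 71.9 to 142, 13.9 to 15.6 and 9.37 to 47.7 at the same ages, and that of macrophages 6.80 to 11.8, 2.35 to 2.75 and 3.36 to 3.90. Peritubular and fibroblast markers summed to 566 to 995, 338 to 471 and 45.8 to 233. The endothelial sum was not highest at 5 days, with 12.4 to 14.7 there and 10.8 to 18.0 at 12 days. In 12-day against 5-day cultures 4 of 8 Leydig, 7 of 9 duct and 7 of 10 macrophage markers were lower.

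The 5 probes shown here stand for members with large age differences; each is the 60-base stretch that the array reads, printed 5′ to 3′ in lower case, with its position in the rn4 build where the files give one. The Foxa2 probe lies at chr3:136739040-136739099 on the minus strand, the Gata2 probe at chr4:122287400-122287459 on the plus strand, and the Sox6 probe at chr1:173557379-173557438 on the minus strand. The Sox30 probe spans chr10:31248252-31248927 on the plus strand, a stretch longer than the probe itself, and no position was available for Foxj1. No annotation of the rn4 build was used, so exons and untranslated parts are not stated.
Foxa2: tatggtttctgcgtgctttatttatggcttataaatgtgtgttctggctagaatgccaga
Gata2: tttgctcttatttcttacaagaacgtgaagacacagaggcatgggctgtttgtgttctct
Foxj1: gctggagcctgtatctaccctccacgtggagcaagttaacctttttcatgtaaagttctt
Sox30: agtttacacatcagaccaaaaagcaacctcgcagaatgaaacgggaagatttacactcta
Sox6: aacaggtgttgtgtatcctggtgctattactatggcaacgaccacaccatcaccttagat

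Of the 53 members, 36 passed the filter (18 Fox, 8 Klf, 9 Sox and Gata2) and 17 did not. In 12-day against 5-day cultures, 3 of the 36 were called, Foxa2 and Foxq1 higher and Gata2 lower, where 12.4% of all genes tested were called (6.08% higher and 6.35% lower). In 60-day against 12-day cultures 11 were called, 2 higher, among them Foxj1, and 9 lower, which were Foxa2, Foxm1, Foxp1, Gata2, Klf5, Klf6, Sox4, Sox11 and Sox30, where 25.3% of all genes were called (12.3% higher and 13% lower). In 60-day against 5-day cultures 11 were called again, 3 higher, among them Foxj1 and Sox6, and 8 lower, which were Foxm1, Foxp1, Gata2, Klf1, Klf6, Klf15, Sox11 and Sox30, where 35.3% of all genes were called (17.2% higher and 18.1% lower). The moderated F-test over the 3 ages called 14 members, where it called 36.6% of all genes. The members' shares of calls, 8.33%, 30.6%, 30.6% and 38.9% in the same order, lay near those of all genes.

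The split by direction is where the set looks uneven: 9 of the 11 calls in 60-day against 12-day cultures were lower. The median log2 difference of the 36 members was -0.64 there, against -0.16 for all genes, -0.37 in 60-day against 5-day cultures, against -0.09, and 0.23 in 12-day against 5-day cultures, against 0.04. That split depended on the scale between arrays. With arrays scaled to 6 spike-in probes, the median of all genes itself moved to 0.80 in 60-day against 12-day cultures, and 3 members were called higher and 1 lower; in 60-day against 5-day cultures the median of all genes was -0.45 and 2 members were called in each direction. Each difference below is therefore one between levels set by that percentile. Groups of arrays that did not overlap were found for 6 members in 12-day against 5-day cultures, where 28.6% of all genes had such groups, for 14 in 60-day against 12-day cultures (40.7% of all genes) and for 12 in 60-day against 5-day cultures (47.4%).

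**Figure D1:**
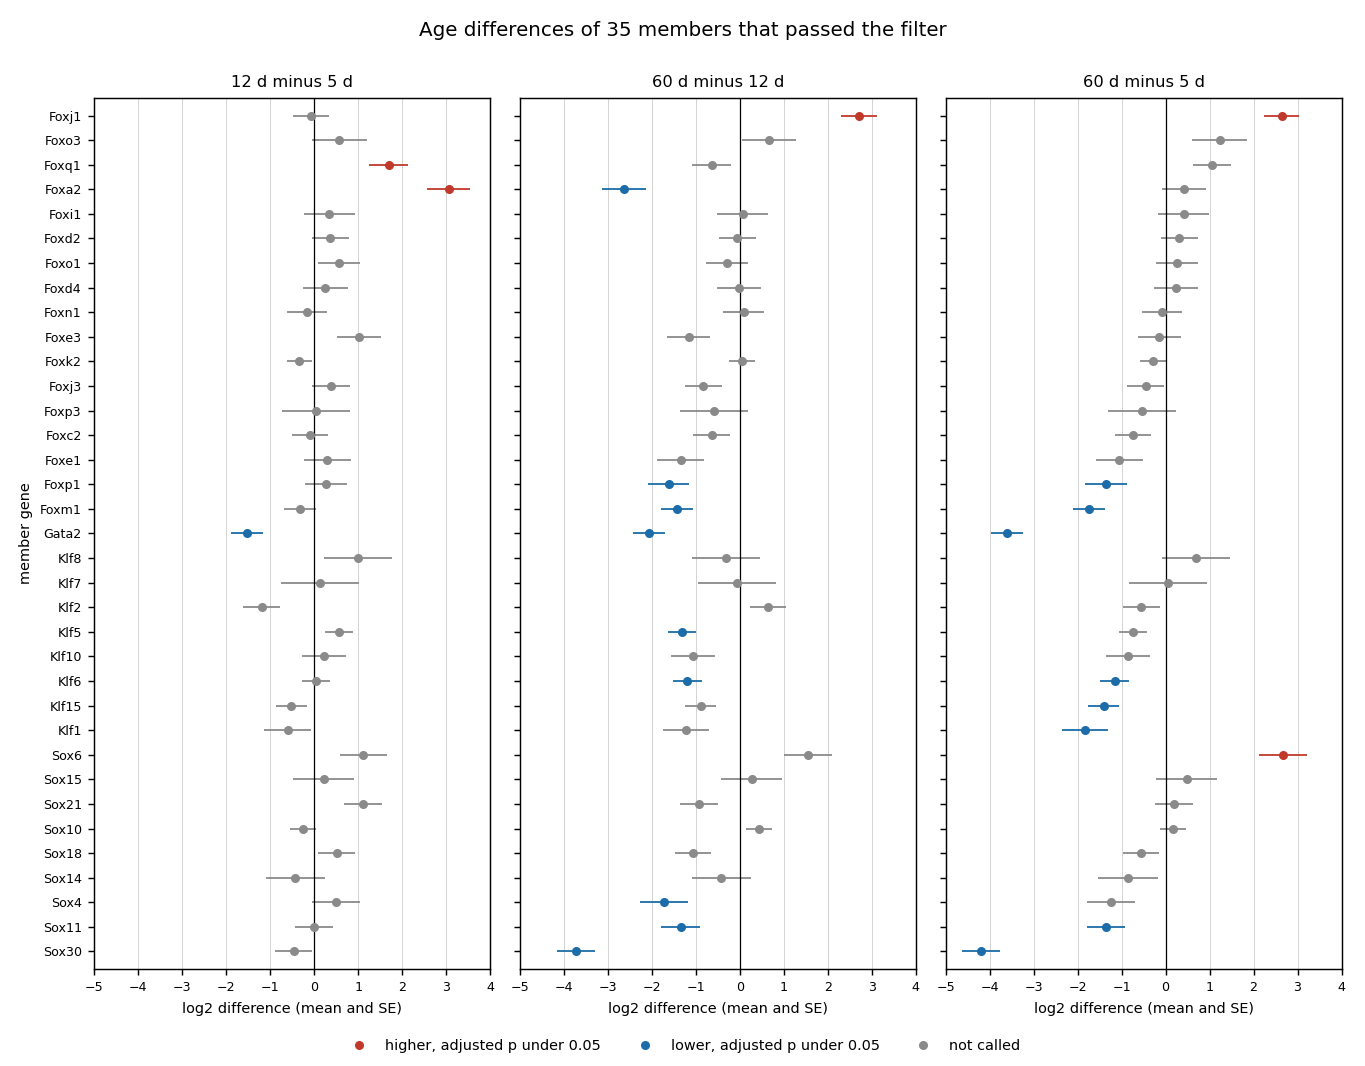
Log2 difference (point) and its standard error (bar) of 35 of the 36 members that passed the filter, in 12-day minus 5-day, 60-day minus 12-day and 60-day minus 5-day cultures, grouped by family. Red and blue mark the members called higher and lower in the later age, grey the rest: 3 members are coloured on the left, 10 in the middle and 10 on the right, and Sox30 lies farthest to the left at -3.73 and -4.20.

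Foxa2, a pioneer factor known from liver, lung and other organs of the endoderm, was highest in the 12-day cultures. Its levels were -1.07, -1.57 and -1.20 at 5 days, 1.04, 1.77 and 2.52 at 12 days, and 0.05, -1.64 and -1.0 at 60 days. All 9 arrays were above background, and the 12-day arrays did not overlap with those of either other age. The 12-day level was 8.3-fold above the 5-day level (log2 difference 3.05 ± 0.49 SE, adjusted p = 0.00229), with differences of 2.10, 3.34 and 3.72 between same-numbered arrays (replicates 1, 2 and 3). The 60-day level was 6.22-fold below the 12-day level (-2.64 ± 0.49, adjusted p = 0.0026), with -0.98, -3.41 and -3.51 between same-numbered arrays. Between 60 and 5 days the arrays overlapped (0.42 ± 0.49, adjusted p = 0.554). Both calls held without any 1 array or replicate number. With spike-in scaling both were lost, at 1.74 (adjusted p = 0.174) and -1.67 (adjusted p = 0.221).

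Foxq1, a forkhead factor known in mice from the hair shaft, was also higher at 12 days. Its probe was not well above background on any 5-day array and was so on all arrays of the other ages: levels were -4.55, -4.06 and -4.08 at 5 days, -2.56, -2.77 and -2.28 at 12 days and -4.18, -2.42 and -2.92 at 60 days. Because the 5-day level is only a bound, the 12-day level was at least 2.83-fold higher (fitted log2 difference 1.69 ± 0.44, adjusted p = 0.0295). That bound sets the mean of the 12-day arrays against the floor of each 5-day array, which is the lowest signal that was well above background there, or the probe's own where higher, and the same holds for each bound below. This call was lost with spike-in scaling and without each of the 6 arrays of those ages in turn (adjusted p up to 0.162 over all leave-outs). In 60-day against 5-day cultures, 1 of the 60-day arrays lay within the 5-day range and the difference was not called (1.06 ± 0.44, adjusted p = 0.0892), although a fit that blocks on the replicate number called it (adjusted p = 0.0447).

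Foxj1, the regulator known to switch on motile cilium genes, rose in the 60-day cultures. Its levels were -2.41, -2.97 and -3.28 at 5 days, -3.48, -2.52 and -2.89 at 12 days, and -0.80, -0.19 and 0.24 at 60 days. All 60-day arrays lay above all others, while the 5-day and 12-day arrays overlapped. The 60-day level was 6.56-fold above the 12-day level (2.71 ± 0.40, adjusted p = 0.000618) and 6.22-fold above the 5-day level (2.64 ± 0.40, adjusted p = 0.000419), and same-numbered arrays gave 2.68, 2.33 and 3.13 against 12 days. No leave-out and no change of scale ended either call.

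The genes that Foxj1 is known to act with moved in the same contrast. Of 20 motile cilium genes on the array (26 were listed), 17 passed the filter, and 15 were higher and 0 lower in 60-day against 12-day cultures, with a median log2 difference of 3.31, where all genes had -0.16. Of these 17, 9 passed through the 60-day arrays alone and 8 were above background on no 12-day array, so the count and the median also hold differences from levels that were not measured. The 7 that were above background on 2 or more 12-day arrays were all called higher, and with levels under an array's floor raised to the floor, 12 of the 17 were higher, with a median of 2.86. The sperm tail is built on the same axoneme as a cilium, and several of these genes are used there. Dnali1, a dynein light intermediate chain, differed by 6.02 ± 0.72 and Tekt4, a tektin filament protein, by 5.89 ± 0.38, while Spag16, a central-pair protein, was above background on no 5-day or 12-day array and on all 60-day arrays. Of the 17, Cfap53 (2.07 ± 0.73, adjusted p = 0.0625) and the cilium regulator Rfx3 (adjusted p = 0.0678) were not called in that contrast. In the same contrast 14 of 15 spermatocyte markers and 17 of 18 spermatid markers were higher. With levels raised to the floor, 13 and 14 of them were higher, and 14 of the 18 spermatid markers had passed through the 60-day arrays alone. The summed spermatid signal was 35.4 to 67.9 at 60 days, against 5.01 to 7.07 at 12 days. The protamines of sperm chromatin parted: Prm1, above background on all 9 arrays, was higher by 3.49 ± 0.49, and Prm2, above background on 2 of the 60-day arrays and on none at 12 days, was not called. The part of these germ cell markers in the Foxj1 result was not tested. In RNA from a whole culture, fewer cells of a type and less RNA per cell cannot be told apart.

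Sox6, a SoxD factor that works with Sox5 and Sox9 in cartilage and also in muscle and red cell precursors, rose between 5 and 60 days. Its levels were -3.75, -6.23 and -4.76 at 5 days, -4.13, -3.71 and -3.54 at 12 days and -2.52, -2.18 and -2.03 at 60 days. It was above background on 1 array at 5 days, 1 at 12 days and all 3 at 60 days, and the 60-day arrays did not overlap with the others. The fitted difference between 60 and 5 days was 2.67 ± 0.54 (adjusted p = 0.00261), a call that held without any array. Because 5-day levels under the floor are not measured, the 60-day level was at least 3.18-fold higher with such levels raised to the floor (adjusted p = 0.0015). Against 12 days the difference of 1.55 ± 0.54 missed the threshold (adjusted p = 0.0582) and passed it in the fit that blocks on the replicate number (adjusted p = 0.0436). Same-numbered arrays gave 1.61, 1.53 and 1.51. The other Sox6 probe, at chr1:173776858-173846836, was above background on 0, 1 and 2 arrays at 5, 12 and 60 days. With levels raised to the floor its 60-day minus 5-day difference was 0.03 ± 0.38. Its 5-day levels were not measured, so that this probe cannot decide whether Sox6 rose. Of the 13 cartilage genes that Sox5, Sox6 and Sox9 are known to drive, 7 passed the filter; in 60-day against 5-day cultures 2 were higher (Comp and Col9a3) and 2 lower (Col9a2 and Col11a1). Aggrecan (Acan), matrilin 3 (Matn3) and Cnmd were above background on no array.

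**Figure D2:**
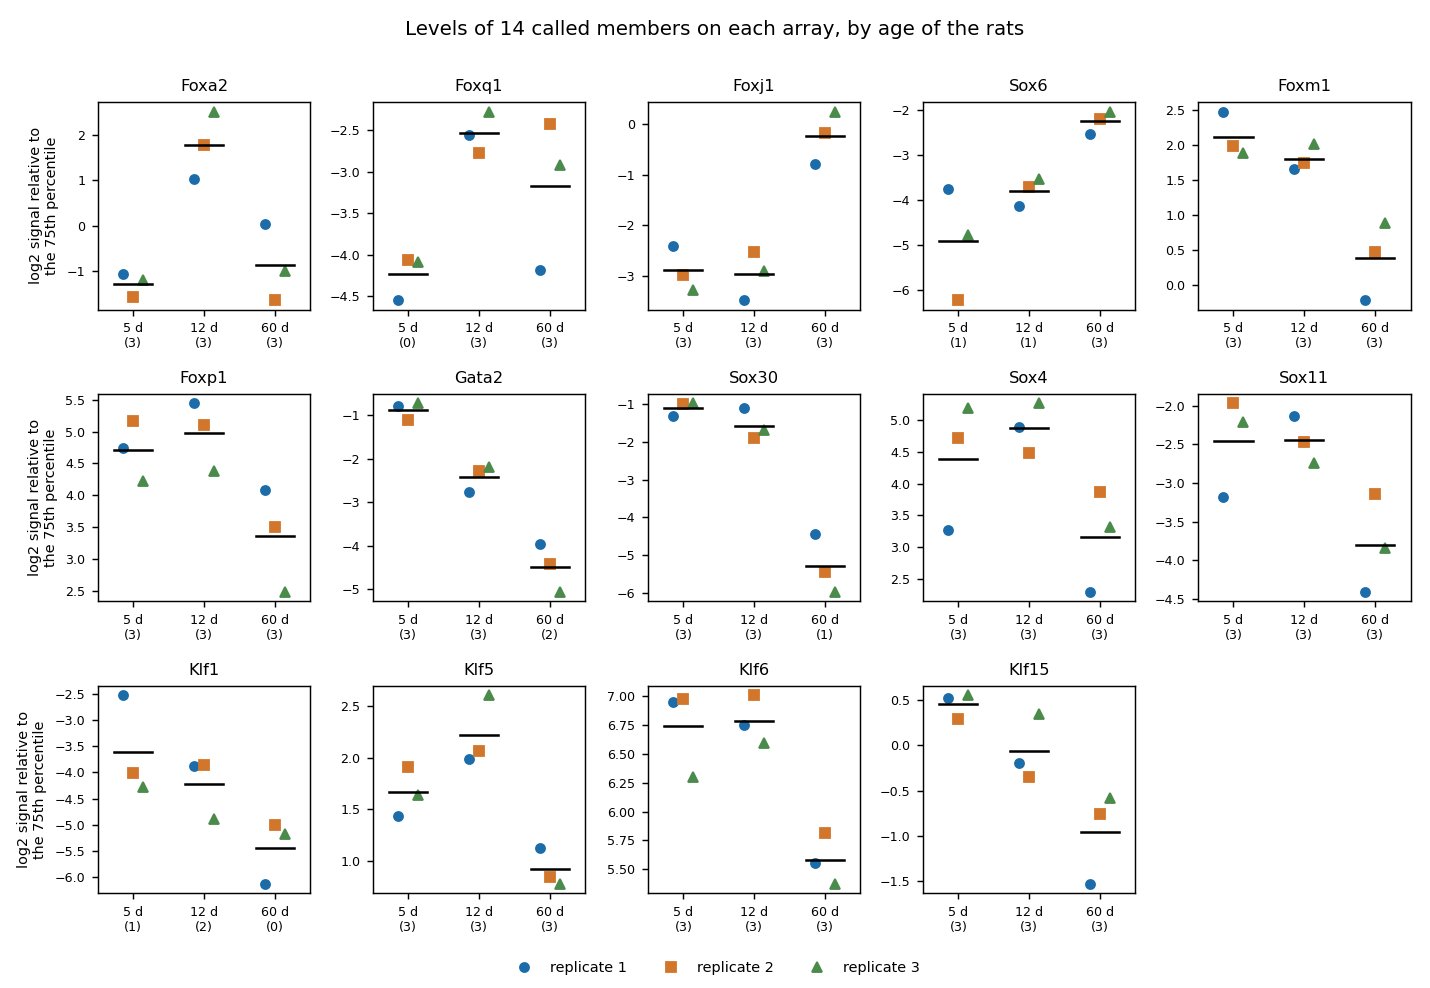
Log2 level relative to the array's 75th percentile (vertical axis, a scale of its own in each panel) of 14 of the 15 members called in at least 1 test, by age in days. Points are arrays, with the shape giving the replicate number, lines are means, and the number in brackets counts arrays well above background: Foxa2 is high at 12 days, Foxj1 at 60 days, and Gata2 steps down at each age.

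Gata2, which is known for blood progenitors, endothelium and mast cells, fell at each step. Its levels were -0.78, -1.11 and -0.72 at 5 days, -2.75, -2.28 and -2.19 at 12 days and -3.96, -4.41 and -5.06 at 60 days. No array of 1 age overlapped with those of another age, and 2 of the 60-day arrays were still above background. The 12-day level was 2.9-fold below the 5-day level (-1.54 ± 0.36, adjusted p = 0.018), the 60-day level 4.19-fold below the 12-day level (-2.07 ± 0.36, adjusted p = 0.00172), and the 60-day level 12.2-fold below the 5-day level (-3.60 ± 0.36, adjusted p = 2.18e-05). With levels under an array's floor raised to it, the folds of 60 days against 12 and 5 days were 3.58 and 10.4. The call between 12 and 5 days was lost without replicate 1 at 12 days, replicate 1 or 3 at 5 days, or any replicate number (adjusted p up to 0.118), and the other calls held in every leave-out. With spike-in scaling the difference between 60 and 12 days was -1.11 and no longer called (adjusted p = 0.476). Endothelial markers moved beside it: of 9 that passed, 6 were lower and 1 higher in 60-day against 5-day cultures, and their summed signal was 12.4 to 14.7 at 5 days, 10.8 to 18.0 at 12 days and 3.71 to 7.08 at 60 days. In the step between 5 and 12 days, where Gata2 fell too, these ranges overlapped. Of the 9 markers, 3 were called lower and 0 higher in that step, with a median log2 difference of -1.19, against 0.04 for all genes. With levels raised to the floor, 2 were lower and the median was -0.82. The Leydig, duct and macrophage sums were lower at 12 days. Peritubular markers were lower in 10 of 14 cases in 60-day against 5-day cultures. Pecam1, Tek, Robo4 and Plvap, which define endothelium, were above background on no array at any age. The part of these cells in the Gata2 result was not tested.

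Other Gata factors on the array, outside the set, went their own ways. Gata1, known from red cell precursors and, in mice, from Sertoli cells, had a fitted difference of 3.53 ± 0.38 between 60 and 12 days. It passed the filter through the 60-day arrays alone, so that this difference also holds 12-day levels that were not measured. Gata6, a partner of Gata4 in gonadal somatic cells, was 2.83 ± 0.45 higher at 12 than at 5 days (adjusted p = 0.00201). Gata4 gave 0.88 ± 0.39 between 60 and 5 days and was not called (adjusted p = 0.103). Gata3, known from T cells and from many epithelia, was a member and was above background on no array. Of the 17 gonadal regulators to which Gata1, Gata4 and Gata6 belong, 5 were higher and 3 lower in 60-day against 5-day cultures.

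Sox30, known in mice as a factor that spermatids need, fell in the 60-day cultures, the largest decrease among the probes that stand for the 36 members. Its levels were -1.32, -0.99 and -0.97 at 5 days, -1.10, -1.90 and -1.69 at 12 days and -4.45, -5.44 and -5.98 at 60 days. The 60-day arrays lay below all others, and 1 of them was above background. The fitted difference was -3.73 ± 0.42 against 12 days (adjusted p = 0.000106) and -4.20 ± 0.42 against 5 days (adjusted p = 2.18e-05), and between same-numbered arrays the differences from 5 days were -3.12, -4.45 and -5.01. With the unmeasured 60-day levels raised to the floor, the 60-day level was at least 7.82-fold below the 12-day level and at least 10.8-fold below the 5-day level, and both stayed called. The other Sox30 probe, at chr10:31270720-31270779, fell too, by 2.20 ± 0.49 against 12 days (adjusted p = 0.00772) and by 2.43 ± 0.49 against 5 days (adjusted p = 0.0028), each among 26600 probes tested alone; raised to the floor these were -1.63 and -1.86. Both calls of Sox30 as a gene held in every leave-out and with spike-in scaling. The other probe was not tested alone in those runs. In these same cultures the spermatid markers were higher and not lower, and the part of cell mixture in the Sox30 result was not tested.

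Sox4 and Sox11, close relatives in the SoxC group that are known from progenitor cells of nerve and mesenchyme, were lower at 60 days. Sox4 levels were 3.27, 4.73 and 5.19 at 5 days, 4.89, 4.49 and 5.27 at 12 days and 2.29, 3.86 and 3.32 at 60 days. The 60-day arrays lay below the 12-day arrays (-1.72 ± 0.55, adjusted p = 0.0405) and overlapped with the 5-day arrays (-1.24 ± 0.55, adjusted p = 0.106, and 0.039 when blocked on the replicate number). The call against 12 days is weak: it was lost without any 12-day array, without replicate 2 at 5 days, replicate 1 or 3 at 60 days or any replicate number, with adjusted p up to 0.143, in the mean over probes, with spike-in scaling and without the filter on dim probes. The other Sox4 probes gave -1.09 ± 0.44 and -1.24 ± 0.43 against 12 days and were not called on their own (adjusted p = 0.104 and 0.0608). Sox11 levels were -3.18, -1.97 and -2.21 at 5 days, -2.13, -2.47 and -2.74 at 12 days and -4.41, -3.14 and -3.85 at 60 days. Its difference was -1.35 ± 0.44 against 12 days (adjusted p = 0.0433) and -1.35 ± 0.44 against 5 days (adjusted p = 0.033), where the arrays overlapped. Both Sox11 calls were lost without replicate 1 or 3 at 60 days, without replicate 3 at 5 days, without replicate number 2 or 3 or with spike-in scaling; that against 12 days was also lost without any 12-day array, without replicate number 1 and with median scaling, and that against 5 days without replicate 2 at 5 days (adjusted p up to 0.159).

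Foxm1, which drives genes of the G2 and M phases in dividing cells, was lower in the 60-day cultures. Its levels were 2.48, 2.00 and 1.89 at 5 days, 1.67, 1.74 and 2.01 at 12 days and -0.22, 0.47 and 0.89 at 60 days. The 60-day arrays lay below all others, 2.69-fold below 12 days (-1.43 ± 0.36, adjusted p = 0.0145) and 3.34-fold below 5 days (-1.74 ± 0.36, adjusted p = 0.00318), while 12 and 5 days overlapped (-0.32 ± 0.36, adjusted p = 0.697). The call against 12 days was lost without replicate number 1 or 2 (adjusted p up to 0.106), that against 5 days held in every leave-out, and both were lost with spike-in scaling. Of 16 genes known as Foxm1 targets, all passed; 5 were lower and 1 higher in 60-day against 12-day cultures (median -0.66), 6 were lower and 1 higher in 60-day against 5-day cultures (median -0.68), and limma called 0 in 12-day against 5-day cultures, where 0 had an unadjusted p under 0.05. With spike-in scaling, 0 of the 16 were lower and 1 higher in 60-day against 12-day cultures, and 5 were lower and 1 higher in 60-day against 5-day cultures. Ube2c, which tags mitotic cyclins for breakdown, fell by 2.45 ± 0.31, Cdk1, the mitotic kinase, by 2.41 ± 0.36 and Plk1, a kinase of the spindle poles, by 2.25 ± 0.31 against 12 days. Nek2, a centrosome kinase, went the other way, 3.24 ± 0.74 higher, while Top2a (-0.39 ± 0.39) and Ccnb1 (-0.67 ± 0.40) were not called.

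Foxp1, a repressor known from heart, lung and lymphocytes, was lower at 60 days. Its levels were 4.74, 5.16 and 4.22 at 5 days, 5.44, 5.10 and 4.38 at 12 days and 4.09, 3.50 and 2.48 at 60 days. The 60-day arrays lay below the others, and replicate 3 was the lowest array of every age. The difference was -1.62 ± 0.47 against 12 days (adjusted p = 0.0281) and -1.35 ± 0.47 against 5 days (adjusted p = 0.0465), and -1.36, -1.60 and -1.91 between same-numbered arrays against 12 days. Blocked on the replicate number, the adjusted p were 0.00341 and 0.0062. Both calls were lost without replicate 1 or 2 at 12 days, replicate 2 or 3 at 60 days or any replicate number, and that against 5 days also without replicate 1 or 2 at 5 days and with median scaling (adjusted p up to 0.141 and 0.234); both were lost with spike-in scaling.

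Among the Klf genes, all calls were lower in the 60-day cultures. Klf6, a widely expressed factor induced by injury, had levels of 6.95, 6.97 and 6.30 at 5 days, 6.75, 7.01 and 6.59 at 12 days and 5.56, 5.82 and 5.38 at 60 days. The 60-day arrays lay below all others, by -1.20 ± 0.33 against 12 days (adjusted p = 0.0201) and -1.15 ± 0.33 against 5 days (adjusted p = 0.0174), with -1.19, -1.19 and -1.21 between same-numbered arrays against 12 days. The other Klf6 probe was not called (-0.90 ± 0.70 against 12 days, adjusted p = 0.401) and varied between replicates: its levels were 0.44, 1.22 and -0.10 at 60 days, against 1.43, 2.75 and 0.07 at 12 days. Both Klf6 calls were lost in the mean over probes, with spike-in scaling, without replicate 3 at 60 days or without replicate number 1 or 2; that against 12 days also without replicate 1 or 2 at 12 days or replicate number 3, and that against 5 days without replicate 1 or 2 at 5 days (adjusted p up to 0.135 and 0.119).

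Klf5, known from proliferating epithelium and smooth muscle, was highest at 12 days: levels were 1.44, 1.92 and 1.64 at 5 days, 1.99, 2.06 and 2.61 at 12 days and 1.12, 0.85 and 0.78 at 60 days. The 3 ages did not overlap. The 60-day level was 2.47-fold below the 12-day level (-1.31 ± 0.32, adjusted p = 0.0118), and the differences of 12 from 5 days (0.56 ± 0.32, adjusted p = 0.344) and of 60 from 5 days (-0.75 ± 0.32, adjusted p = 0.0934) were not called. The call was lost without replicate number 2 or 3 (adjusted p up to 0.133), with spike-in scaling and in the mean over probes; the other probe spread from -5.07 to -1.33 within the 5-day arrays.

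Klf15, a regulator of amino acid and lipid metabolism under glucocorticoids, went down with age: levels were 0.52, 0.29 and 0.56 at 5 days, -0.19, -0.34 and 0.35 at 12 days and -1.53, -0.75 and -0.58 at 60 days. The 60-day arrays lay below all others, and the difference from 5 days was called (-1.41 ± 0.36, adjusted p = 0.01) but not that from 12 days (-0.89 ± 0.36, adjusted p = 0.0956). The call was lost without replicate number 1 or 2 (adjusted p up to 0.0773) and with spike-in scaling. Klf1, the regulator of globin genes in red cell precursors, was dim: levels were -2.52, -4.02 and -4.28 at 5 days, -3.88, -3.87 and -4.89 at 12 days and -6.12, -5.01 and -5.18 at 60 days, above background on 1, 2 and 0 arrays. Its fitted 60-day minus 5-day difference was -1.83 ± 0.53 (adjusted p = 0.0191). Most levels of these ages were not measured, so that no bound on the fold is given. The call was lost with spike-in scaling, with levels raised to the floor (adjusted p = 0.0556) and without replicate 1 of either age (adjusted p up to 0.0691). Of 4 red cell markers on the array 2 passed, Alas2, the heme enzyme of red cell precursors, and the beta-globin entry Hbb-b1. In 60-day against 5-day cultures Alas2 was the 1 called, higher. In 12-day against 5-day cultures 1 of the 2 was called lower. Hbb and Slc4a1 were above background on no array.

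Genes that Klf factors are known to control in endothelium and smooth muscle were often lower in the 60-day cultures. Of 12 on the array 10 passed. In 60-day against 12-day cultures 7 were lower and 1 higher, where 13% of all genes were lower and 12.3% higher. Their median was -2.83, against -0.16 for all genes. Thrombomodulin (Thbd), an endothelial anticoagulant, differed by -5.99 ± 0.62, Myh11, smooth muscle myosin, by -3.37 ± 0.50 and Pdgfrb, the receptor of mural cells, by -4.50 ± 0.45, while Vcam1, a leukocyte adhesion molecule, was higher by 4.65 ± 0.66. This list shares 5 genes with the peritubular and fibroblast markers, of which 8 of 14 were lower and 0 higher in that contrast, with a summed signal of 45.8 to 233 at 60 days, against 338 to 471 at 12 days. The part of these cells in the Klf results was not tested.

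**Figure D3:**
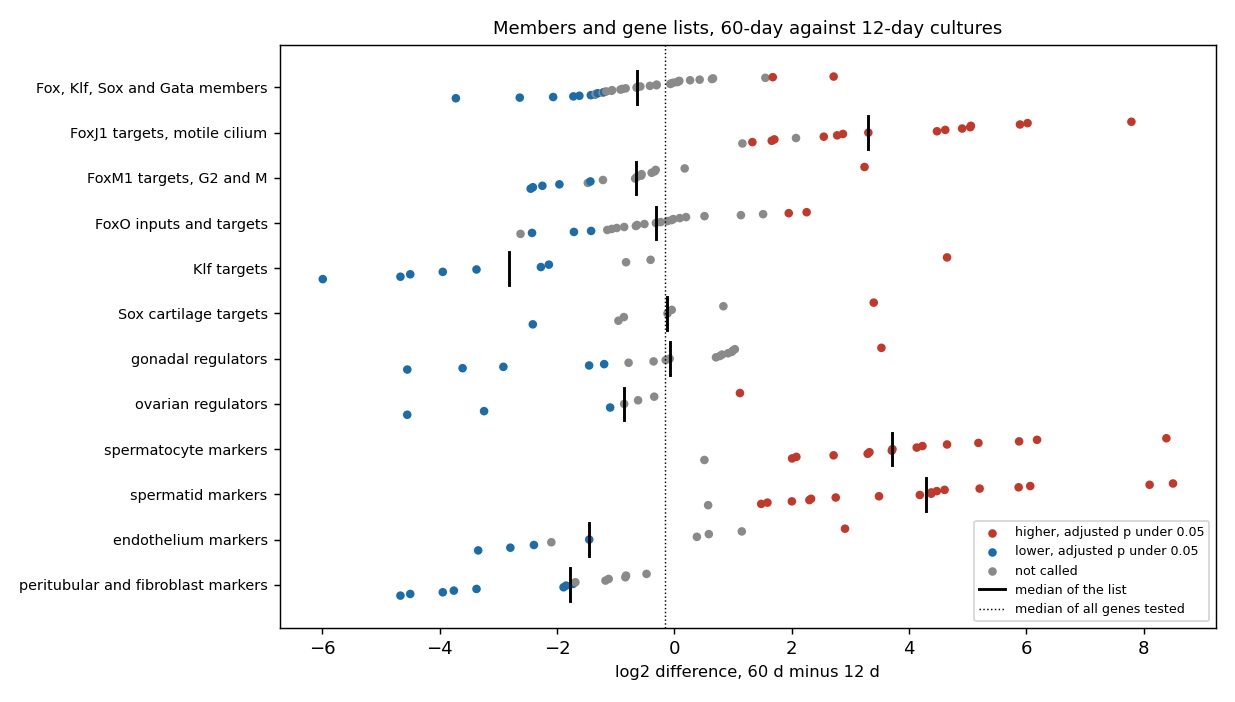
Log2 difference of 60-day minus 12-day cultures (horizontal axis) of the members that passed the filter and of genes in 11 lists that passed it, 1 point a gene. Red and blue mark genes called higher and lower in the 60-day cultures and grey the rest, the black line is the list's median and the dotted line that of all genes tested (-0.16): the motile cilium genes (median 3.31) lie on the same side as the germ cell markers, and the members' median is -0.64.

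Foxc2, a factor of lymphatic vessels and mesenchyme, gave answers that differ between its probes. Both are shown because they disagree; neither has an rn4 position in the files, and 66.7% of the bases are G or C in A_44_P633261, against 35% in A_44_P671089.
A_44_P633261: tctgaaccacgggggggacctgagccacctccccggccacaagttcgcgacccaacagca
A_44_P671089: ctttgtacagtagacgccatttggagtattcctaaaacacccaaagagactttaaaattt
The probe with the higher mean, A_44_P633261, stood for the gene: levels were -0.90, -0.48 and 0.04 at 5 days, -0.23, -0.91 and -0.47 at 12 days and -1.25, -0.52 and -1.78 at 60 days, with no call (-0.64 ± 0.41 for 60 against 12 days, adjusted p = 0.292). For A_44_P671089 they were 1.83, 1.35 and 0.50 at 5 days, 0.73, 0.66 and -0.38 at 12 days and -3.08, -5.54 and -6.04 at 60 days, where 1 array was above background. Tested alone, A_44_P671089 fell by 5.23 ± 0.70 against 12 days (adjusted p = 0.000341) and by 6.12 ± 0.70 against 5 days (adjusted p = 5.72e-05), where 12.3% and 17.2% of all probes tested alone were called lower. With its unmeasured 60-day levels raised to the floor these differences were -4.41 and -5.30. In leave-outs that made A_44_P671089 the probe with the higher mean, and in the mean over probes, Foxc2 was called lower.

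**Figure D4:**
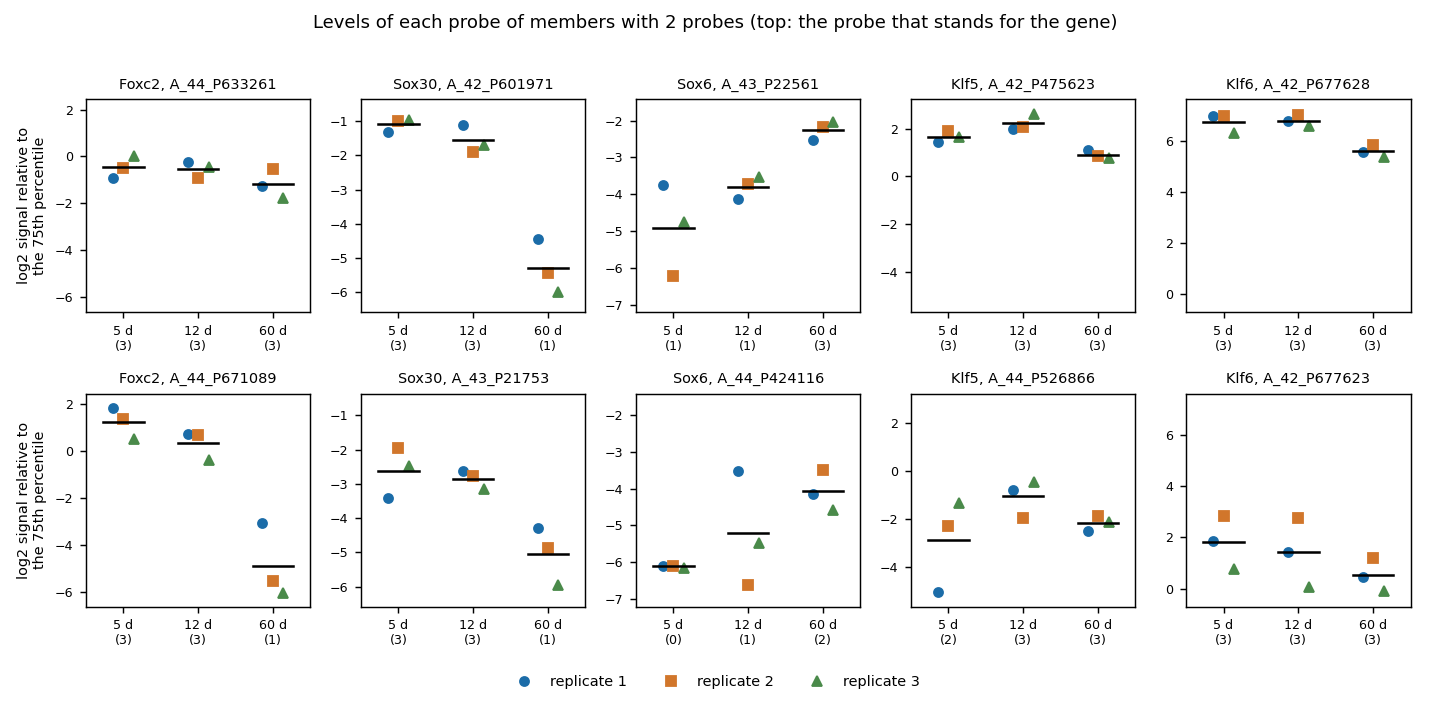
Log2 level relative to the array's 75th percentile of each probe of 5 members with 2 probes, by age in days, with the probe that stands for the gene above and the other below on the same scale. Points are arrays, lines are means and bracketed numbers count arrays well above background: the Foxc2 probes part at 60 days, both Sox30 probes lie lowest at 60 days, and the second Sox6 probe was measured on few arrays.

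Foxo1 and Foxo3, which act on the genome when insulin signalling through Akt is low, were not called in any contrast. Foxo1 levels were -2.54, -2.65 and -1.46 at 5 days, -1.41, -2.63 and -0.92 at 12 days and -1.99, -1.90 and -2.0 at 60 days, all above background and overlapping; the 60-day minus 5-day difference was 0.26 (95% interval -0.80 to 1.31). Foxo3 was above background on 1, 2 and 3 arrays at 5, 12 and 60 days and its 60-day minus 5-day difference was 1.23 (-0.14 to 2.60). Among 23 measured genes of insulin signalling and Foxo targets, 3 were higher and 5 lower in 60-day against 5-day cultures; Irs2, an insulin receptor substrate, fell by 2.19 ± 0.34 and Sesn1, a sestrin, rose by 1.46 ± 0.35. The insulin receptor (Insr) was above background on no array.

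Other members without a call held a wide range of levels. Klf10, induced by TGF-beta, had levels between 2.64 and 5.18 and gave -1.06 ± 0.50 for 60 against 12 days (adjusted p = 0.152). Klf2, the factor that blood flow induces in endothelium, gave -1.19 ± 0.42 for 12 against 5 days on arrays that did not overlap, and missed the threshold (adjusted p = 0.101); with spike-in scaling it was called, at -2.51 (adjusted p = 0.0429). Klf7, known from neurons, varied by replicate number more than by age: replicate 3 was lowest at every age, with 1.1 at 5 days, 0.72 at 12 days and 0.38 at 60 days, against 1.91 to 3.41 on the other arrays, and its interval for 60 minus 5 days ran from -1.90 to 2.02. Sox18, an endothelial SoxF factor, gave -1.07 ± 0.41 for 60 against 12 days (adjusted p = 0.0829) and Sox10, a neural crest factor, 0.43 ± 0.30 (adjusted p = 0.334).

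Foxe1, known from the thyroid, is a case where 1 array decides. Its levels were -0.46, -0.70 and -0.40 at 5 days, 0.10, -0.46 and -0.32 at 12 days and -2.10, -0.14 and -2.48 at 60 days. The difference from 12 days was -1.34 ± 0.54 and not called (adjusted p = 0.0936), and without the high 60-day array, replicate 2, it was called (adjusted p = 0.00332). The remaining uncalled members, among them Foxk2, Foxd2, Foxd4, Foxe3, Foxi1, Foxj3, Foxn1, Foxp3, Klf8, Sox14, Sox15 and Sox21, had differences between -1.34 and 1.23 in all 3 contrasts, as had the 21 uncalled members together. Foxk2, a broadly expressed forkhead factor, was the tightest, with levels from 1.04 to 1.69 on the 9 arrays and an interval of -0.94 to 0.36 for 60 minus 5 days. The files of replicate 3 describe the Foxd2 probes as another forkhead protein and those of replicate 1 as Foxd2, so that name is uncertain.

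Of the 17 members that did not pass the filter, 13 were above background on none of the 9 arrays. Foxl2, the ovarian factor, was among them, as were Foxa1, Foxd3, Foxh1, Foxi2, Foxn4, Foxp4, Foxr1, Gata3, Klf12, Sox5, Sox7 and Sox8. Sox8 levels were -5.74, -6.20 and -4.35 at 5 days, -6.46, -6.64 and -5.38 at 12 days and -6.99, -6.68 and -6.50 at 60 days. These signals lay below the floor of each array, and a probe that is not well above background does not show that the gene is silent. Foxa3, Klf3, Sox13 and the endothelial factor Sox17 were above background on some arrays but not on 2 of any age. Of 11 regulators of the ovarian fate, 7 passed, and Foxl2, Cyp19a1 (aromatase), Esr1 and Esr2 were above background on no array. In 60-day against 5-day cultures 4 of the 7 were called lower and 1 higher. Their median log2 difference was -1.56, against -0.09 for all genes. Wnt4, a signal of the female gonad, was 3.12 ± 0.35 higher at 60 than at 5 days. The Sox5 probe named in the files lay at chr4:181648572-181648631; a probe under another name, which its accession gives to Sox5, at chr4:180399243-180399302, was above background on all arrays with levels between -0.18 and 1.99, and was not counted as a member's probe.

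Promoters offered a feature that the choice by name did not use. RefSeq promoters (GRCr8 build, 250 bases before to 50 after the start) were found for 35 of the 53 members, 11 of them called in at least 1 test. The members' promoters had a median of 16 CpG pairs and 62.7% G or C, against 7 and 51.7% over all 33469 promoters. The families' own motifs were sought on both strands, and none of them contains another: TGTTTAC for forkhead factors (in 1 of 35 members' promoters and 3.78% of all), AACAAT for Sox (3 of 35 and 11.7%), CACACCC for Klf (4 of 35 and 7.08%) and AGATAA for Gata (1 of 35 and 11.6%). Of 4 members whose promoter held a motif of their own family (Foxp1, Klf1, Klf3 and Sox15), Foxp1 and Klf1 are printed because they were called, with the motif in capitals; Klf3 did not pass the filter and Sox15 was not called. The Foxp1 promoter is chr4:133353231-133353530 on the minus strand, with the match 164 bases before the start, and the Klf1 promoter is chr19:40158602-40158901 on the minus strand, with the match 60 bases before the start.
Foxp1: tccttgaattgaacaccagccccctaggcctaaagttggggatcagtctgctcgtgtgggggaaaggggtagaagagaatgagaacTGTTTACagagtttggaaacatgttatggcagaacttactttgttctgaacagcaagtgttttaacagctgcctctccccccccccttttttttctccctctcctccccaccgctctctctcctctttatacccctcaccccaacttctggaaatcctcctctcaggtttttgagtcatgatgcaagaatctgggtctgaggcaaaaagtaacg
Klf1: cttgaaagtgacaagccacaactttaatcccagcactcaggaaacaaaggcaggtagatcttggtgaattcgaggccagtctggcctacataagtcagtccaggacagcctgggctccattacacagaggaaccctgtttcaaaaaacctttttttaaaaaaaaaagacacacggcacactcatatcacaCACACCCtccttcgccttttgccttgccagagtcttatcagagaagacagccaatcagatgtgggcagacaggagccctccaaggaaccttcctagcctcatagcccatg
A match of letters is a description of the sequence and not a binding site, and both promoters had 3 CpG pairs, fewer than all other members' promoters but that of Klf12, with 1, and that of Sox6, with 3 too.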

How the data were processed

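RNA of 9 cultures was labelled with Cy3 and read on 1-colour Agilent arrays. The deposited scanner files hold spot intensity values that, per the file headers, Agilent Feature Extraction had corrected for background (version 9.5.3.1 for replicate 1, and 10.5.1.1 for replicates 2 and 3). A deposited table of log2 values, whose processing is not given in the sources used here, served as an alternative. From each processed intensity the log2 was taken and the array's 75th percentile (148 to 437 intensity units) subtracted. Of 41012 probes, 254 were left out for quality and 26600 passed the filter on dim probes; a gene was represented by its brightest probe on average. Names came from accessions for 11216 probes, symbols for 5577, older symbols for 3710 and the file for 20509. Probe positions are those of the rn4 build, per the file headers.

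All 9 arrays entered 1 limma fit (limma 3.58.1, R 4.3.3), with a mean for each age and 6 residual degrees of freedom. The moderated tests were adjusted by Benjamini-Hochberg over 22449 genes, or 26600 probes where a probe was tested alone, and the fit was tested on simulated data. Differences are later minus earlier age with the standard error of the fit, and intervals are 95% intervals of the same fit. Same-numbered arrays are those with the same replicate number. The sample labels do not say what such arrays shared. The correlation of same-numbered arrays, after the mean of each age was taken off, was 0.181 to 0.601, and that of arrays with different numbers was at most 0.0939. Replicate 1 was read on a G2505B scanner, and replicates 2 and 3 on a G2505C scanner. The number of arrays limits the precision.

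Values on each array are given for members called in at least 1 test, and for a further set of members named whatever their change; others are given by range and count. The members and the gene lists were chosen with earlier results of these data known. Of the further set, Foxc1, Foxf1, Foxk1, Foxn3, Foxo4, Gata5, Klf13, Sox2 and Sox12 were not analysed here. The values of 1 called member are not reported here; it stays in the counts.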

Additional observations from a re-analysis of the deposited data

How the results depend on the processing

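Of 25 called values of members, 0 reversed under 22 alternatives, 6 were kept in all but normexp, and 14 were lost without some array or replicate number. With arrays scaled to 6 spike-in probes, 2 members were called in 12-day against 5-day cultures, 4 in 60-day against 12-day, 4 in 60-day against 5-day and 5 by the F-test, and 17 called values were lost; the spike-in level relative to the 75th percentile ran from 2.73 to 5.12 (log2) within the 12-day arrays. Normexp background correction, which could use replicates 1 and 3 alone, called 0 members in each of the 3 contrasts and 0 by limma's F-test (1, 1, 3 and 1 of 32 at an unadjusted p under 0.05), and 0.0239% to 1.25% of all genes; the dimmest 1% of corrected signals lay at 54.9 to 55.5 in replicate 1 and at 317 to 939 in replicate 3. Restricting the test to probes well above background on all 9 arrays left 18 members, of which 1, 8, 6 and 8 were called in the 3 contrasts and the F-test. Leaving out 1 array or replicate number gave 1 to 3, 5 to 11, 7 to 12 and 5 to 13 calls in that order, the fewest mostly without replicate number 2. With the replicate block the counts were 3, 12, 13 and 16; it added Sox6 (60 against 12 days), Foxq1 and Sox4 (both 60 against 5 days) and ended 0 calls. The remaining alternative was chosen after seeing the data: with every level under an array's floor raised to it, 3, 12, 10 and 13 members were called. Of the called values 3 were lost, among them that of Klf1, and Sox6 (60 against 12 days) and Sox14 (60 against both ages) were gained. The floors ran from -4.13 to -3.98 at 5 days, -4.52 to -3.33 at 12 days and -4.76 to -4.38 at 60 days. Raising dim levels to them can by itself add a decrease at 60 days: Sox14 moved from -0.42 to -1.07 against 12 days. Of 83 uncalled values, 16 were called under at least 1 alternative, among them Klf10, Sox18 and Foxe1 when a single 60-day array was left out.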
